A study of Mus musculus with 11 samples.

Results

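The genes described here were 42 genes of brain endothelium, the cells that line the blood vessels of the brain, out of 36666 genes in the count table. They were 9 junction genes, 9 surface and identity genes, 9 transporters, 11 transcription factors and Wnt targets, and 4 genes of endothelial activation. The members were chosen by their symbols, from a list drawn up with the mutator against control differences of these same mice in view, so those differences are given below as a description and nothing is read from how many of them passed a test. RNA-Seq of poly(A) RNA was performed on the cerebrum of 11 male C57/Bl6 mice aged 1 year. The mutator group was 7 mice homozygous for the D257A knock-in allele of Polg (D257A/D257A), which is carried in every tissue and impairs the proofreading of the mitochondrial DNA polymerase. The control group was 4 mice, of which 3 were WT/WT and 1, mouse 237, was heterozygous (WT/D257A). All were born to heterozygous parents. Values are CPM, the counts of a gene scaled to a library of 1000000 counts after TMM normalization, and differences are log2 fold changes of mutator over control with their standard error (SE) and Benjamini-Hochberg adjusted p-value from edgeR's quasi-likelihood test over all 17983 genes tested.

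Brain endothelium forms the blood-brain barrier. Its cells are sealed to each other by tight junctions of claudins and occludin, they import glucose, amino acids, lipids and hormones through transporters, they pump drugs back into the blood with ABC transporters, and they keep this state under Wnt and β-catenin signaling from the surrounding tissue. Activated endothelium places adhesion molecules (selectins, Icam1, Vcam1) on its surface and releases von Willebrand factor and P-selectin from storage granules called Weibel-Palade bodies. In RNA from whole cerebrum, fewer endothelial cells and less RNA per endothelial cell cannot be told apart.

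The gene counts of a mouse totaled 28249345 to 121182250 among the controls and 37821243 to 91219204 among the mutators. Control mouse 246 had the lowest total and stood apart in many of the genes below: it was the highest of the 4 controls in 22 of the 40 members tested (55%), against 26.4% of all genes tested, so calls that changed when it was left out are given below, with values of several other genes without it. The heterozygous control 237 was highest among the controls in 12 members (30%) and lowest in 7 (17.5%), against 28.4% and 29.5% of all genes. The listed number of aligned reads of mutator 248 did not match its counts (3.00 gene counts per listed aligned read, against 0.744 to 0.775 in the other 10 mice), and without this mouse the log2 fold changes of Vwf, Ctla2a and Itm2a were 1.22, 0.72 and -0.37. Markers of neurons, astrocytes and oligodendrocytes were abundant in every mouse, as the tissue label states, and 18 further pan-endothelial genes were all detected, with a summed level of 305 to 341 CPM in the controls and 333 to 424 CPM in the mutators.

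Of the 42 members, 40 passed the filter on low counts, and Sele and Selp did not. Vwf and Ctla2a rose in the mutators and Itm2a fell, each at an adjusted p under 0.05. The background was 0.439% of all genes called higher and 0.801% called lower. At an unadjusted p under 0.05 there were 11 members, against 15.8% of all genes, and DESeq2 called 3.7% of the genes it gave an adjusted p. The other 37 tested members did not pass the test. The median log2 fold change of the 40 genes was -0.01, against 0.00 over all genes tested, with 20 above 0 and 20 below, and 30 of the 40 lay within 0.25 of 0. The 2 groups did not overlap in 1 member that was higher (Vwf) and in 3 that were lower (Itm2a, Abcg2 and Foxq1), where 1.2% and 1.42% of all genes did the same.

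**Figure D1:**
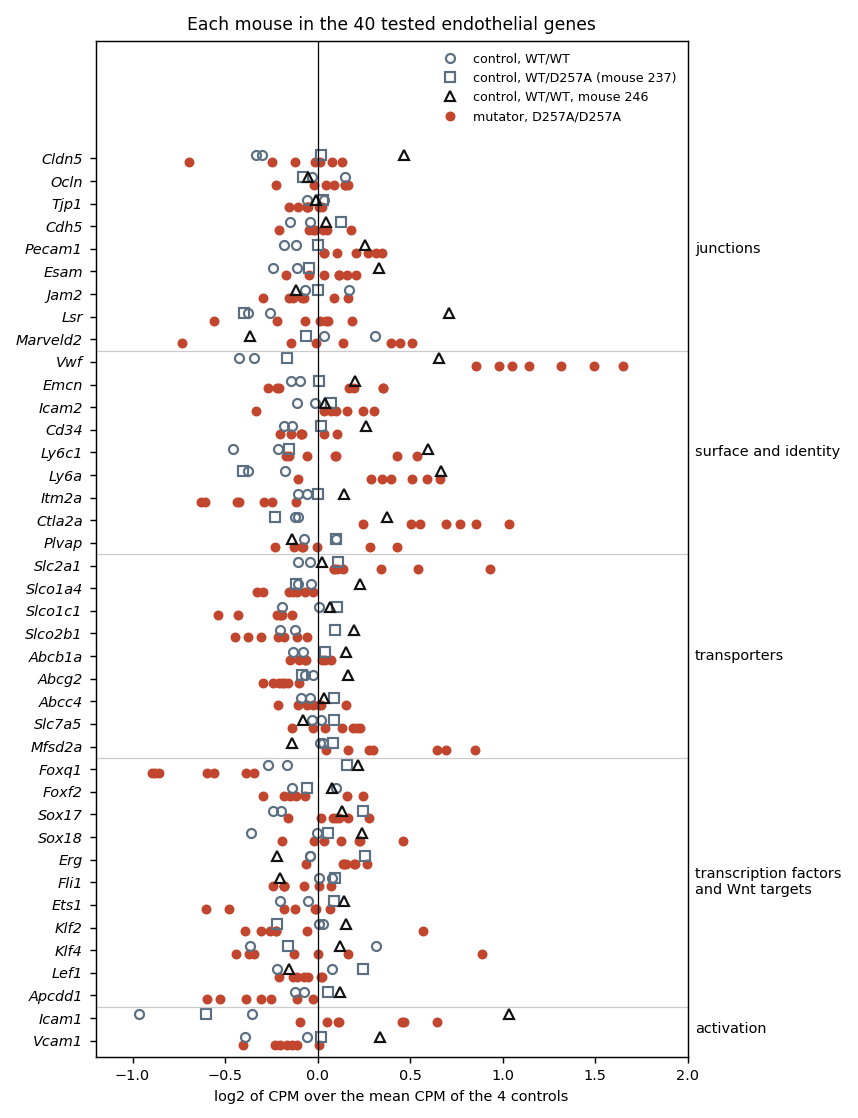
Each mouse in the 40 tested members, as log2 of its CPM over the mean CPM of the 4 controls. Circles are WT/WT controls, squares the heterozygous control 237, triangles control 246, and filled circles the 7 mutators. All 7 mutators lie to the right of every control for Vwf, while for most genes the groups lie over each other, and the triangle is the rightmost control in 22 genes.

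**Figure D2:**
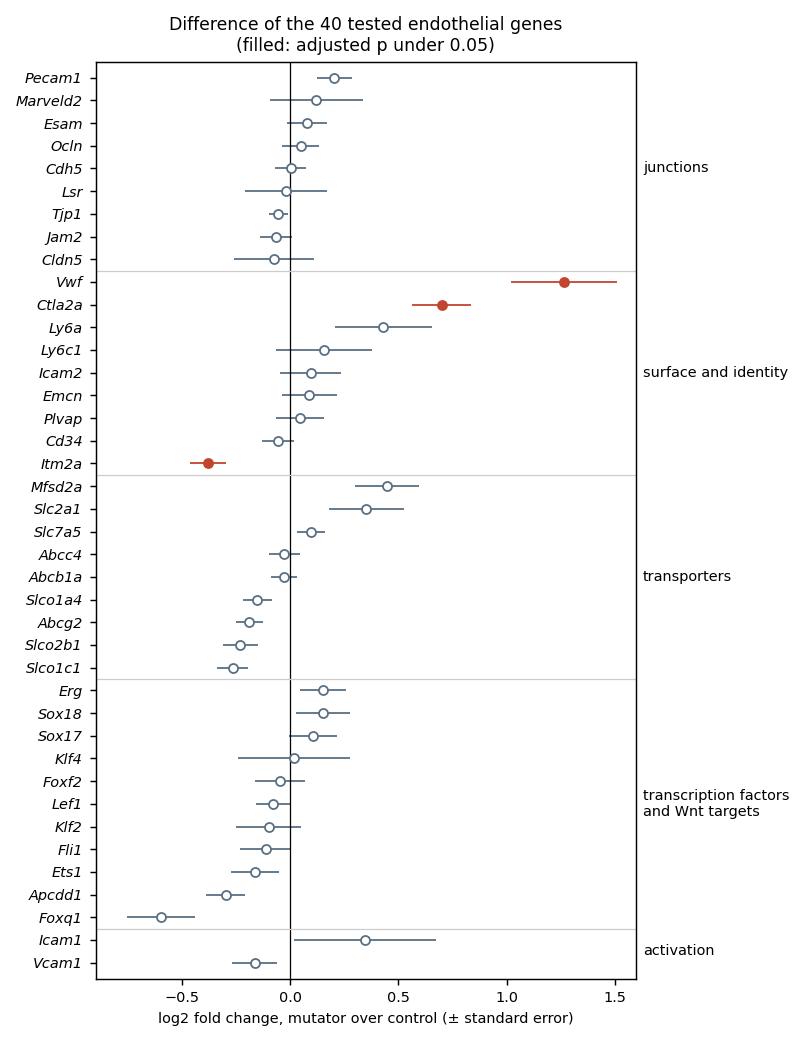
Log2 fold change of mutator over control for the 40 tested members, by role, with bars of 1 standard error. Filled points have an adjusted p under 0.05, and they are Vwf (1.27), Ctla2a (0.70) and Itm2a (-0.38).

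Among the surface and identity genes, Vwf encodes von Willebrand factor, the multimeric glycoprotein that tethers platelets to an injured vessel wall. Vwf (chr6 of mm9, 125496792 to 125636697, plus strand) was at 19.3, 21.8, 18.2 and 38.6 CPM in control mice 205, 237, 239 and 246. In the 7 mutators its lowest, median and highest values were 44.3, 54.1 and 76.9 CPM. Every mutator was above every control, and the heterozygous control lay with the WT/WT mice 205 and 239, while control 246 lay between those 3 and the mutators. The log2 fold change was 1.27 (SE 0.25, edgeR adjusted p = 0.0472). Without control 246 it was 1.55 (adjusted p = 0.0096). The call was close to its threshold: it was lost, with log2 fold changes of 1.15 to 1.31, when mouse 205 (adjusted p = 0.0708), 237 (0.199), 239 (0.117), 207 (0.0517), 211 (0.0799), 236 (0.0687), 240 (0.0925), 248 (0.0831) or 249 (0.0665) was left out.

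Ctla2a encodes a protein related to the propeptide of cathepsins. It was at 5.23, 4.79, 5.18 and 7.30 CPM in control mice 205, 237, 239 and 246, and at 6.67 (lowest), 9.09 (median) and 11.5 (highest) CPM in the mutators. Mutator 217 lay below control 246, and the other 6 mutators lay above all 4 controls. The log2 fold change was 0.70 (SE 0.14, edgeR adjusted p = 0.0162). The adjusted p was 0.113 without mouse 237 and 0.0642 without mouse 239. Its neighbor and near copy Ctla2b had a log2 fold change of 0.67 (SE 0.27, adjusted p = 0.23) at 0.291 to 1.48 CPM, and how the counting shared reads between the pair is not stated, so the split between them is uncertain.

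Itm2a encodes an integral membrane protein that is abundant in brain vessels. Its values were 47.6, 49.5, 45.9 and 54.7 CPM in control mice 205, 237, 239 and 246, and 31.9 (lowest), 36.8 (median) and 45.6 (highest) CPM in the mutators. All mutators lay below all controls, with mutator 217 only just below control 239. The log2 fold change was -0.38 (SE 0.08, edgeR adjusted p = 0.0375). The adjusted p was 0.174 without mouse 237, 0.0608 without 239, 0.135 without 246, 0.0556 without 240, 0.0777 without 248 and 0.0544 without 249.

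Ly6a, which encodes the surface antigen Sca-1, was at 13.3, 13.1, 15.3 and 27.5 CPM in control mice 205, 237, 239 and 246. The mutators had 16.05 (lowest), 22.7 (median) and 27.4 (highest) CPM. Every mutator was above 3 of the controls and below control 246. The log2 fold change was 0.43 (SE 0.23, edgeR adjusted p = 0.396) with all mice and 0.72 (adjusted p = 0.0347) without control 246. Its relative Ly6c1 showed the same position of mouse 246, at 43.2 CPM against 20.8 to 25.7 in the other controls and 25.5 to 41.6 in the mutators, with a log2 fold change of 0.16 (SE 0.22) with all mice and 0.41 (adjusted p = 0.374) without control 246. The near copy Ly6c2 had between 0 and 0.298 CPM. Emcn (endomucin), Icam2, Cd34 and Plvap (the protein of the diaphragms of leaky capillaries, kept low at a mature barrier) had log2 fold changes of 0.09, 0.10, -0.06 and 0.05, and none passed the test (lowest adjusted p = 0.753).

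**Figure D3:**
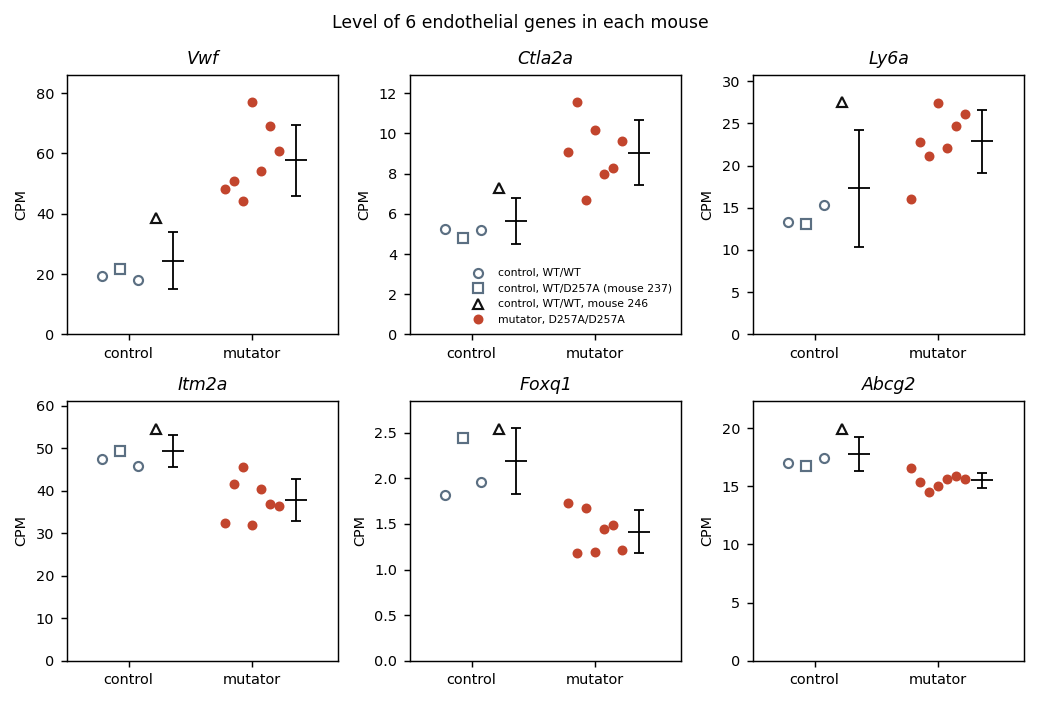
CPM of 6 members in each mouse, controls on the left and mutators on the right of each panel, with the mean and SD of each group beside the points (n = 4 and n = 7). Control 246 (triangle) is the highest control in each of the 6 panels, and the groups do not overlap for Vwf, Itm2a, Foxq1 and Abcg2.

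The exon bin counts, available for the 7 mutators and the 3 WT/WT controls, were used to ask whether single parts of a member gene departed from the rest of that gene. Of 479 bins tested in 38 members, 1 had an adjusted p under 0.05 (limma diffSplice), where 0.0121% of all 206930 bins did, and 7 had an unadjusted p under 0.05, as 2.69% of all bins did. The called bin was bin 36 of the 78 bins of Vwf. Flattening the mm9 gene models of GENCODE placed this bin in a single transcript annotated as a retained intron, at chr6:125584366-125585572 (1207 bases), inside the 4311-base intron of the full-length transcripts that ends at bin 37. The sequences below are shown because the first holds the border between this intronic bin and the next exon, and the second holds bases of the bin that also occur elsewhere in the genome. In the first, from chr6:125585523-125585622 of mm9, plus strand, the end of bin 36 is in lower case and the start of the exon, bin 37, in capitals. In the second, the first 200 bases of bin 36 (chr6:125584366-125584565), capitals mark bases that align to other places in the genome.
End of bin 36 and start of bin 37: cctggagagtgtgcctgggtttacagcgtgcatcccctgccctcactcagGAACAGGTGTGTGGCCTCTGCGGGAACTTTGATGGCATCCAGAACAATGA
Start of bin 36: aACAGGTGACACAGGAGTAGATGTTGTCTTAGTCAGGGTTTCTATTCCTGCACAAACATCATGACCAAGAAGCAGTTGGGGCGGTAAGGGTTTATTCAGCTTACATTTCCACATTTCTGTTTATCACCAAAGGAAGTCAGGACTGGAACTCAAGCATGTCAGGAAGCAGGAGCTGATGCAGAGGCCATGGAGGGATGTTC

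Bin 36 had 204, 99 and 50 counts in WT/WT mice 205, 239 and 246, or 1.93, 1.81 and 2.03 CPM of all exon bin counts, and 1.65 (lowest), 1.99 (median) and 2.37 (highest) CPM in the mutators. The mutators spanned the WT/WT values. The 77 other bins together had 21.7, 19.6 and 46.1 CPM in the same 3 WT/WT mice and 52.2 (lowest), 66.0 (median) and 94.8 (highest) CPM in the mutators, so there the groups did not overlap. All 61 other tested bins were higher in the mutators, with log2 ratios of mean CPM from 0.79 (bin 32) to 1.91 (bin 52) and a median of 1.25, and the exon directly after bin 36 had 1.13. Relative to the rest of Vwf, bin 36 differed by -1.52 on the log2 scale (limma adjusted p = 4.2e-08), and by -1.16 with edgeR's exon test (adjusted p = 0.0017). The call held in each of the 10 fits that left out 1 mouse (highest adjusted p = 0.0044). Bin 39 (681 bases) is annotated only in the same retained-intron transcript as bin 36. Its log2 ratio of mean CPM was 0.79, on 1 to 14 counts per mouse, so the whole transcript cannot be called unchanged. Bin 36 held 4.21% to 8.48% of the Vwf bin counts in the WT/WT mice and 2.17% to 3.66% in the mutators. The first 451 bases of the bin, except base 1, aligned to other places in mm9 at 90% identity or more over at least 100 bases, with 11665 such alignments, which is 37.3% of its length. How many of its reads came from other copies was not tested.

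**Figure D4:**
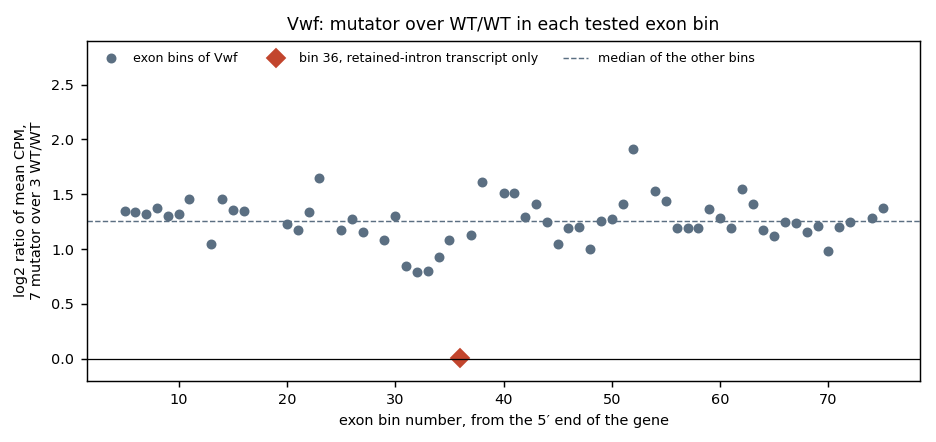
Log2 ratio of mean CPM, 7 mutators over 3 WT/WT controls, in each tested exon bin of Vwf, in order from the 5′ end. The 61 other bins lie between 0.79 and 1.91, around a median of 1.25 (dashed line), and bin 36 lies at 0.01.

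The remaining bins of the other called members followed their genes. All 5 tested bins of Ctla2a were higher in the mutators, with log2 ratios from 0.49 to 0.94. All 6 tested bins of Itm2a were lower, with log2 ratios from -0.46 to -0.34. The same held for Slco1c1 (17 of 17 bins lower) and Mfsd2a (16 of 16 higher), which did not pass the gene test, while Cdh5 had 8 of 12 bins above 0 and a median of 0.05.

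Of the 9 junction genes 0 were called by edgeR or DESeq2 (1, Pecam1, had an unadjusted edgeR p under 0.05), and all 9 had log2 fold changes within 0.25 of 0, from -0.08 to 0.20. Cldn5, the main claudin of the brain endothelial tight junction, was at 17.9, 22.9, 18.3 and 31.2 CPM in control mice 205, 237, 239 and 246 and at 13.97 (lowest), 22.4 (median) and 24.8 (highest) CPM in the mutators. Control 246 was above every mutator and mutator 249 below every other mouse. The log2 fold change of Cldn5 was -0.08 (SE 0.18, edgeR adjusted p = 0.885) with all mice and 0.11 (adjusted p = 0.834) without control 246, so its sign turned.

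Ocln, which encodes occludin, had 9.11 ± 0.68 CPM in the 4 controls and 9.47 ± 0.85 CPM in the 7 mutators (mean ± SD, as in the other pairs of values that follow). Tjp1, the scaffold protein ZO-1 that also occurs in many other cells, had 123 ± 3.65 and 118 ± 5.1 CPM. Cdh5, the VE-cadherin of endothelial adherens junctions, had 16.6 ± 1.36 and 16.5 ± 1.34 CPM and a log2 fold change of 0.00 (SE 0.07). The differences of these 3 genes were smaller than the SD of either group, except that of Tjp1, which lay between its 2 SDs (edgeR adjusted p = 0.572).

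Pecam1, the platelet and endothelial adhesion molecule, had the largest difference among the junction genes, a log2 fold change of 0.20 (SE 0.08, edgeR adjusted p = 0.214). Its controls were at 17.6 to 23.8 CPM, with mouse 246 highest, and its mutators at 20.4 to 25.4 CPM. Lsr, the angulin of the corners where 3 cells meet, was at 5.16 CPM in control 246 against 2.39 to 2.64 in the other controls and 2.14 to 3.59 in the mutators. Its log2 fold change was -0.02 (SE 0.19) with all mice and 0.28 (adjusted p = 0.472) without control 246. A noncoding gene on the opposite strand shares 3660 exonic bases with Lsr, and the strand setting of the counting is not stated, so reads of the pair cannot be told apart. Esam, Jam2 and Marveld2 (tricellulin) had log2 fold changes of 0.08, -0.07 and 0.12.

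Of the 9 transporters, 0 were called by edgeR in either direction, 5 had an unadjusted p under 0.05 (15.8% of all genes did), and DESeq2 called 1, Slco1c1. Of the 9 log2 fold changes, 6 were below 0. Slco1c1, an organic anion transporter that carries thyroxine and had the lowest of the 9 values, was at 53.4, 57.2, 46.6 and 55.7 CPM in control mice 205, 237, 239 and 246 and at 36.7 (lowest), 46.2 (median) and 48.4 (highest) CPM in the mutators. Only mutator 248 was above the lowest control, mouse 239. The log2 fold change was -0.27 (SE 0.07, edgeR adjusted p = 0.0737). This gene passed in 2 of 16 alternatives, DESeq2 (adjusted p = 0.0293) and edgeR without the filter on low counts (adjusted p = 0.0415). The related Slco2b1 and Slco1a4 had log2 fold changes of -0.23 (SE 0.08, edgeR adjusted p = 0.17) and -0.15 (SE 0.07, adjusted p = 0.278), and that of Slco1a4 was -0.07 (adjusted p = 0.71) without control 246. The near copy of the latter, Slco1a5, was at 0.145 to 0.528 CPM.

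Among the ABC efflux pumps, Abcg2 (the breast cancer resistance protein) was at 16.97, 16.8, 17.5 and 19.95 CPM in control mice 205, 237, 239 and 246 and at 14.5 (lowest), 15.6 (median) and 16.6 (highest) CPM in the mutators. The groups did not overlap, but the highest mutator was close to the lowest control. Its log2 fold change of -0.19 (SE 0.06, edgeR adjusted p = 0.135) did not pass the test. Abcb1a, the P-glycoprotein, had 40.7 ± 3.62 and 39.8 ± 2.22 CPM in controls and mutators, and its near copy Abcb1b had 4.45 ± 0.36 and 4.95 ± 0.58 CPM. Abcc4 (Mrp4) had a log2 fold change of -0.03 (SE 0.07).

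Slc2a1, the glucose transporter Glut1, was at 91.0, 106, 95.1 and 99.4 CPM in control mice 205, 237, 239 and 246 and at 104 (lowest), 107 (median) and 187 (highest) CPM in the mutators. Mutator 249 was highest, followed by 236 (143 CPM) and 207 (124 CPM), and the remaining 4 mutators lay close to the highest control. Mfsd2a, which carries lysophospholipids with docosahexaenoic acid and limits transcytosis, was at 17.05, 17.7, 16.8 and 15.2 CPM in control mice 205, 237, 239 and 246 and at 17.2 (lowest), 20.5 (median) and 30.1 (highest) CPM in the mutators. The same 3 mutators, 249, 236 and 207, were highest. The log2 fold changes were 0.35 (SE 0.17, edgeR adjusted p = 0.362) for Slc2a1 and 0.45 (SE 0.15, edgeR adjusted p = 0.171) for Mfsd2a. Slc7a5, the large neutral amino acid transporter Lat1, which neurons also use, had a log2 fold change of 0.10 (SE 0.06).

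Of the 11 transcription factors and Wnt targets, 0 were called by edgeR, 2 (Foxq1 and Apcdd1) had an unadjusted p under 0.05, and DESeq2 called 1, Foxq1. Their median log2 fold change was -0.08. Foxq1, a forkhead factor enriched in brain endothelium, was at 1.82, 2.44, 1.95 and 2.54 CPM in control mice 205, 237, 239 and 246 and at 1.18 (lowest), 1.45 (median) and 1.73 (highest) CPM in the mutators. All mutators lay below all controls. Its log2 fold change was -0.60 (SE 0.16, edgeR adjusted p = 0.0651), and it passed in 3 of 16 alternatives, DESeq2 (adjusted p = 0.0155) and the fits without control 205 (0.0439) and without mutator 207 (0.0448). A protein-coding gene on the opposite strand shares 1164 exonic bases with Foxq1, so its reads are uncertain in the same way as those of Lsr. The related Foxf2, which lies close to Foxq1 on chromosome 13, had 4.16 ± 0.32 and 4.03 ± 0.55 CPM, a difference below the SD of either group.

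Apcdd1 and Lef1 are targets of Wnt signaling, the first an inhibitor at the cell surface and the second a nuclear partner of β-catenin. Apcdd1 was at 19.0 to 22.5 CPM in the controls and at 13.6 to 20.3 CPM in the mutators. Its log2 fold change was -0.30 (SE 0.09, edgeR adjusted p = 0.109). Lef1 had 13.8 ± 2.07 and 13.1 ± 0.76 CPM. Sox17 and Sox18, which act in vascular development, had log2 fold changes of 0.11 (SE 0.11) and 0.15 (SE 0.13).

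The ETS factors Erg, Fli1 and Ets1, which keep endothelial genes active, had log2 fold changes of 0.15, -0.11 and -0.16 with SEs of 0.11, 0.12 and 0.11. The ETS core motif AGGAAG, searched on both strands of the 250 bases before each start site in RefSeq (GRCm38.p6), was found for 16 of the 26 members that have an entry (61.5%) and for 32.3% of all 27025 genes. It neither contains nor lies within the second pattern searched below, and a match is only a run of letters. Itm2a, Ctla2a and Abcg2 were among the members with a match. The flow-responsive factors Klf2 and Klf4 were set apart by mutator 249, at 13.4 CPM for Klf2 against 6.87 to 8.65 in the other mutators and 7.74 to 10.0 in the controls. For Klf4 this mouse had 13.8 CPM against 5.49 to 8.37 in the other mutators and 5.78 to 9.28 in the controls. It was the mouse with the highest Slc2a1 and Mfsd2a and the lowest Cldn5 among the mutators.

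The 4 activation genes were led by a control animal. Sele, the E-selectin of cytokine-activated endothelium, had 61 counts in control 246 and 2 counts in each of the other 3 controls, and from 2 to 9 counts in the 7 mutators. Selp, the P-selectin of Weibel-Palade bodies, had 6, 0, 4 and 45 counts in control mice 205, 237, 239 and 246 and from 1 to 16 in the mutators. Control 246 was far above all other 10 mice in both genes, although it had the smallest library, and both genes failed the filter on low counts, so neither was tested. Icam1 was at 2.08, 1.75, 1.36 and 5.45 CPM in control mice 205, 237, 239 and 246 and at 2.50 (lowest), 2.88 (median) and 4.16 (highest) CPM in the mutators. All 7 mutators lay above 3 of the controls and below control 246. Its log2 fold change was 0.35 (SE 0.33, edgeR adjusted p = 0.658) with all mice and 0.88 (adjusted p = 0.0313) without control 246. Vcam1, which other cells of the brain also express, was at 27.4, 28.9, 21.7 and 35.9 CPM in the controls and at 21.5 to 28.6 CPM in the mutators, and its log2 fold change was -0.16 (SE 0.10) with all mice and -0.04 without control 246.

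Without control 246, 4 members were called higher and 0 lower (0.273% and 0.235% of all genes): Vwf, Ctla2a, Ly6a and Icam1, and the log2 fold change of Itm2a was -0.33 (adjusted p = 0.135). Some genes of inflammation outside the members stood out in the same control mouse. Others did not, such as Nfkbia, at 17.4 CPM in control 246 and 17.8 to 19.5 in the other controls. Lcn2 (lipocalin 2, an acute-phase protein named here after its values were seen) was at 12.2 CPM in control 246, at 0.0320 to 0.161 in the other 3 controls and at 1.16 to 3.97 in the mutators. The neutrophil genes S100a8 and S100a9, also named after their values were seen, were at 3.20 and 7.52 CPM in control 246, at up to 0.345 and 0.288 in the other controls and at 0.415 to 2.60 and 1.17 to 3.73 in the mutators. In all 3 genes, the mutators lay between control 246 and the other controls. This did not hold for Il1b and Socs3, which were also highest in control 246. Il1b was at 1.31 CPM there, at 0.240 to 0.322 in the other controls and at 0.0538 to 0.306 in the mutators. Socs3 was at 5.71, 3.11 to 3.87 and 2.82 to 3.99 CPM in the same order. Ly6g, a neutrophil surface marker, had 1 count in control 246 and 0 to 6 counts in the other mice, with the 6 in mutator 207. The summed level of the 10 leukocyte genes listed was 33.2 CPM in control 246. It was 16.1 to 20.5 in the other controls and 16.5 to 21.9 in the mutators. S100a8 and S100a9 are part of this sum, so it is not separate from their values. The part of these cells or genes in the endothelial values was not tested.

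**Figure D5:**
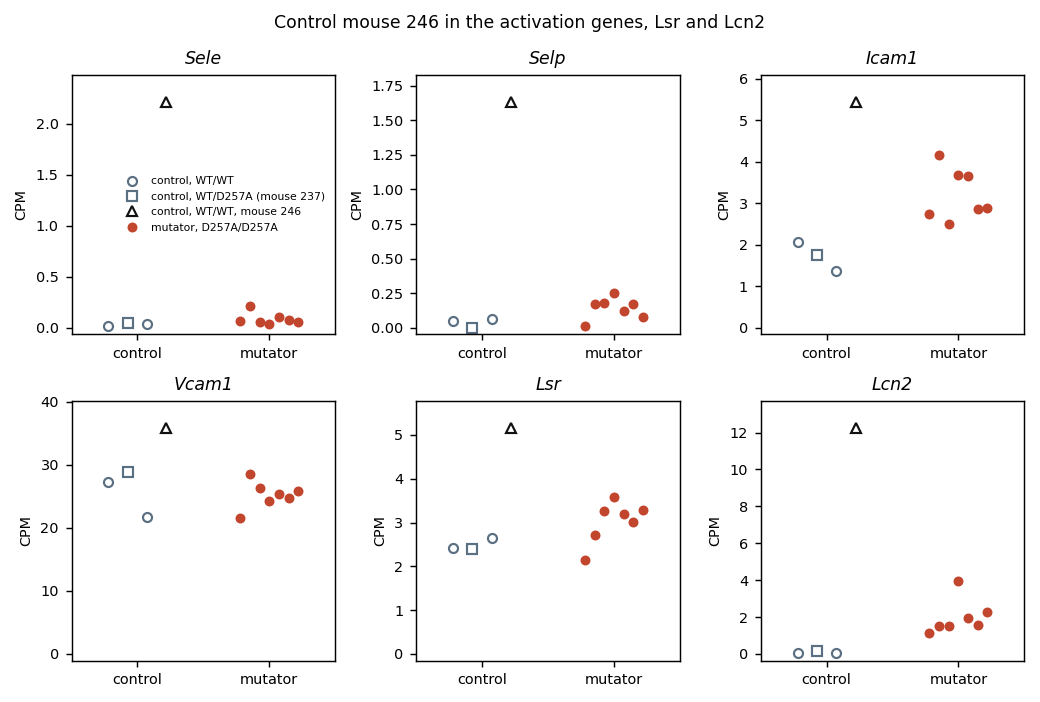
CPM of Sele, Selp, Icam1, Vcam1, Lsr and Lcn2 in each mouse. Control 246 (triangle) is the highest of all 11 mice in each panel, and the 7 mutators lie above the other 3 controls for Icam1 and Lcn2.

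The start regions of Icam1, Selp and Sele are shown because these 3 genes were high together in control 246. Each is the 250 bases before the start site in RefSeq (GRCm38.p6), 5′ to 3′ on the plus strand, at chr9:21015690-21015939, chr1:164115014-164115263 and chr1:164047984-164048233. Capitals mark matches on either strand to GGNNTTTCC, a pattern of letters taken from the DNA sites bound by NF-κB.
Icam1: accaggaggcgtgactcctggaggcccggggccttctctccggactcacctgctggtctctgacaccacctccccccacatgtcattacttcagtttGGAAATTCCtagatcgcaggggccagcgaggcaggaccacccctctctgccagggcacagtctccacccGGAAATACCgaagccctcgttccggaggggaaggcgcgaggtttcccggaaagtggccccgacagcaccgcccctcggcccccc
Selp: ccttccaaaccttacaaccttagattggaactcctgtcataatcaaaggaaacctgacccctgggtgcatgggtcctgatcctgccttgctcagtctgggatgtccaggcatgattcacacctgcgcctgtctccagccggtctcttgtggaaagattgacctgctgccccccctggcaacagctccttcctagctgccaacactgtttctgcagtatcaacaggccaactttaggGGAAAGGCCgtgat
Sele: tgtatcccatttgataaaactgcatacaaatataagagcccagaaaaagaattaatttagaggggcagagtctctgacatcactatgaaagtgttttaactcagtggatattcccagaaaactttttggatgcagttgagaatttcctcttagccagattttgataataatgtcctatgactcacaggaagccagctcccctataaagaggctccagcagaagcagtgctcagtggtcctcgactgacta

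The pattern occurred at 2 places in the Icam1 window, from 153 to 145 and from 84 to 76 bases before the start, and at 1 place in the Selp window. The Sele window held no run of these letters. Other forms of NF-κB sites were not searched, so this does not mean that Sele lacks such a site. The pattern was found for 3 of the 26 members with an entry (11.5%), the third being Slco2b1, and for 5.6% of all 27025 genes.

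Levels can be compared between genes only per length. Per kilobase of annotated exonic sequence, the controls had the highest levels for Slc2a1 (34.3 ± 2.18 CPM per kilobase, SD, n = 4) and Ly6c1 (34.0 ± 11.9), which did not differ beyond their spread, followed by Itm2a (28.3 ± 2.18). Ly6a (21.1 ± 8.38), Cd34 (20.5 ± 2.95), Slco1c1 (19.6 ± 1.72) and Slc7a5 (19.5 ± 0.96) came next and lay within each other's spread. Cdh5 was at 4.15 ± 0.34 and Vwf at 1.52 ± 0.59 CPM per kilobase in the controls, and Vwf at 3.59 in the mutators. The merged Vwf length of 16064 bases holds retained-intron stretches, such as bin 60 with 3052 bases. This lowers the value of Vwf, so its rank against Cdh5 is uncertain. The lowest tested genes were Marveld2 (0.291 ± 0.056), Lsr (0.63 ± 0.27) and Foxq1 (0.782 ± 0.128).

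To set the members against the endothelium as a whole, their log2 CPM was taken relative to the mean log2 CPM of the 18 pan-endothelial genes, which was 3.39 to 3.66 in the controls and 3.396 to 3.67 in the mutators. This scale is a description with no test. On it, Vwf was 1.21 higher in the mutators, Ctla2a 0.62 higher, and Itm2a, Foxq1 and Abcg2 had differences of -0.46, -0.70 and -0.26. Each of these differences lay below the log2 fold change of its gene given above, and Eng of the 18 genes was itself called higher. The ratio of Vwf ran from 0.80 to 1.61 in the controls and from 1.85 to 2.67 in the mutators. That of Itm2a ran from 2.05 to 2.13 and from 1.40 to 1.89, so neither overlapped. The ratio of Foxq1 (-2.59 to -2.29 and -3.41 to -2.61) did not overlap either. Those of Ctla2a (-1.32 to -0.79 and -0.88 to -0.12) and Abcg2 (0.49 to 0.74 and 0.24 to 0.66) did.

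Further gene lists of the vessel wall were described in the same way. Of the 18 pan-endothelial genes, Eng (endoglin, a TGF-β co-receptor) rose, with a log2 fold change of 0.81 (SE 0.09, edgeR adjusted p = 0.000338), and 0 fell. The median of the list was -0.02, and 8 of its genes had an unadjusted p under 0.05, against 15.8% of all genes. DESeq2 called 5 of the 18 higher and 0 lower, against 3.7% of all genes in either direction. They were Eng, the VEGF receptors Kdr (0.85, DESeq2 adjusted p = 0.00193) and Flt1 (0.36, 0.00394), Eltd1 (0.50, 0.00128) and Clec14a (0.53, 0.00867). The first listed, Tek (the angiopoietin receptor) and its partner Tie1, had log2 fold changes of -0.22 and -0.29 and did not pass. Of 11 tested genes of Weibel-Palade bodies, 3 rose and 0 fell: Vwf, Edn1 (endothelin-1, log2 fold change 1.66, SE 0.20) and Angpt2 (angiopoietin-2, 1.55, SE 0.28), with a median of 0.12. Among 11 venous genes Vwf was the 1 call, with a median of 0.02. Without control 246 the venous calls were 3, Vwf, Icam1 and Lcn2, and the median was 0.26. Of 11 tested genes of tip cells and angiogenesis, Angpt2 and Adm (adrenomedullin, 1.10, SE 0.21) rose and Mcam (-0.39, SE 0.08) fell. DESeq2 called these too, and also Nid2 higher (0.39, adjusted p = 0.0195). Without control 246, edgeR did not call Angpt2 and Adm. Of 14 arterial genes, edgeR called Unc5b (-0.44, SE 0.09) lower and 0 higher. Bmx and Efnb2, the first listed, had 0.62 (edgeR adjusted p = 0.0841) and 0.03. DESeq2 called Unc5b lower and also Bmx higher (adjusted p = 0.0243).

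Of 20 further barrier transporters, Tfrc (the transferrin receptor, 0.53, SE 0.09, edgeR adjusted p = 0.0174) rose, and Slc38a3 (a glutamine transporter that astrocytes express, -0.36, SE 0.07, adjusted p = 0.0098) and Pltp (the phospholipid transfer protein, -0.41, SE 0.07, adjusted p = 0.00495) fell. The median was 0.01. DESeq2 called these too, and also Slc19a3 (0.54, adjusted p = 0.00618) and Slc7a3 (0.39, 0.0281) higher, where it called 3.7% of all genes. Of 15 further junction genes, 0 were called by edgeR or DESeq2 (1 had an unadjusted edgeR p under 0.05), with a median of 0.04, and Cldn1 and Cldn3 had 0.06 and -0.40. Of 20 genes of the Wnt pathway of the barrier, Reck (a co-receptor for Wnt7 ligands, 0.34, SE 0.07, edgeR adjusted p = 0.0255) rose and Wnt7b (a ligand made by neural cells, -0.33, SE 0.07, adjusted p = 0.0195) fell, and the receptors Fzd4 and Fzd6 had 0.25 and -0.09. DESeq2 called Reck and Wnt7b too, and also Nkd1 lower (-0.31, adjusted p = 0.0141). Without control 246, edgeR did not call Tfrc and Reck. Of 10 tested genes of the response to shear stress edgeR called only Edn1, and DESeq2 also called Cyp1b1 higher (0.66, adjusted p = 0.00695). Of 10 tested NF-κB target and cytokine genes edgeR and DESeq2 called 0 (1 at an unadjusted edgeR p under 0.05). Nfkbia and Tnfaip3 had 0.30 and -0.08. Without control 246, Lcn2 of this list was called higher (log2 fold change 4.75, SE 0.54, edgeR adjusted p = 0.00152).

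Markers of other cells that could carry member transcripts were read beside these results. Platelets hold von Willebrand factor of their own. Of 10 tested platelet genes, edgeR called Ppbp (log2 fold change 3.83) and Tubb1 (5.08) higher, and DESeq2 called Ppbp only. Ppbp and Tubb1 were at 0.224 to 1.23 and 0.0364 to 0.649 CPM in the mutators. In the controls they were at 0.0160 to 0.182 and 0 to 0.0160. The log2 fold changes of the 10 genes ran from -0.70 to 5.08, with a median of 0.47. Of the 10, 7 had an unadjusted edgeR p under 0.05 in either direction, against 15.8% of all genes. The summed level of the 12 platelet genes was 11.5 to 14.8 CPM in the controls and 11.5 to 16.8 in the mutators. Ppbp and Tubb1 were a small part of this sum. The part of platelets in the Vwf difference was not tested. The erythroid list of 6 tested genes had 0 calls by edgeR or DESeq2 (1 at an unadjusted edgeR p under 0.05), with Hbb-b1 at 35.5 to 117 CPM in the controls (mouse 246 highest) and 47.4 to 133 in the mutators. Of 15 genes of pericytes and mural cells, edgeR called Abcc9 higher (0.64, SE 0.08), and DESeq2 also called Acta2 lower (-0.54, adjusted p = 0.0125). Pdgfrb and Rgs5 had 0.00 and 0.13. The lists of perivascular fibroblasts, astrocytes, microglia and macrophages, neurons, oligodendrocytes, choroid plexus and leukocytes had 0 edgeR calls among 58 genes tested, 18 of them (31.0%) with an unadjusted p under 0.05, where 15.8% of all genes were, and 5 DESeq2 calls (3.7% of all genes), with medians from -0.21 to 0.21. Without control 246, the leukocyte gene S100a9 was called higher (3.18, SE 0.43, edgeR adjusted p = 0.00678).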

How the data were processed

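Poly(A) RNA of the cerebrum of 11 mice was sequenced as paired ends. The authors aligned reads to mm9 with TopHat2 2.0.6 and Bowtie2 2.0.2.0 and counted them with HTSeq 0.5.3p9 on Ensembl gene models. The deposited values used here are raw counts per gene symbol and, for 10 mice, raw counts per exon bin. The strand setting is not given in the sources used here. Tables of the authors' own differential tests (DESeq, DEXSeq) were not used. Listed read totals served only for comparison with the counts.

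The 7 mutator and 4 control mice (the 237 heterozygote included) were compared with edgeR 4.0.16 (filterByExpr, TMM, robust quasi-likelihood fit, Benjamini-Hochberg over all genes tested). Exon bins were tested with limma 3.58.1 (voom, diffSplice) on 7 mutator and 3 WT/WT mice. Alternatives were RLE and upper-quartile scaling, DESeq2 1.42.0, fits unfiltered or on genes averaging 10 counts or more, edgeR's exon test, and leaving out each mouse. Groups were said not to overlap on log2 CPM with a prior count of 2. On simulated data with 200 changed features, edgeR recovered 184 genes with 15 false calls. This recovery was not split by size of difference. Recovery of log2 differences within 0.25 of 0, where most members lay, was not tested separately. For exon bins, limma recovered 180 and edgeR's exon test 177, with 17 and 7 calls in genes that held no changed bin. False calls of other bins in changed genes were not counted. Coordinates are from GENCODE gene models of mm9, of a later release than the authors' Ensembl models, and exonic lengths merge all transcripts. Copies of the Vwf bin were sought with BLAST. Of the 42 members, 26 had a RefSeq start region.

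The members and lists were chosen with earlier results of these data known. All 42 members are named. Of the other lists, genes with an edgeR adjusted p under 0.05 in all mice are named, and for some lists also the first 2 listed. Other names, such as genes that only DESeq2 called, were chosen after their values were seen. Animals are the replicates. Count totals per mouse set the precision, and genes below about 1 CPM rest on few counts.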

Additional observations from a re-analysis of the deposited data

Results flagged for a closer look

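Among 84 groups of values (42 genes in 4 controls and in 7 mutators), 8 held a mouse far from the others of its group by Dixon's ratio of the gap to the whole range. For independent groups of normally distributed values, chance flags about 1 in 20, or 4.2 of 84. The groups here share the same mice, and Sele and Selp rest on low counts, so 8 against 4.2 is not a test. Control mouse 246 was the highest control for Sele (ratio 0.987), Selp (0.961), Lsr (0.91) and Ly6a (0.848). Its levels were 2.22, 1.64, 5.16 and 27.5 CPM, against at most 0.0461, 0.0641, 2.64 and 15.3 CPM in the other controls. Mutator 249 was the highest mutator for Klf2 (0.727, 13.4 CPM) and Klf4 (0.654, 13.8 CPM) and the lowest for Erg (0.584, 3.85 CPM against 4.42 to 4.83). Mutator 211 was the highest mutator for Sele (0.622), which rests on 9 counts.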

How the results depend on the processing

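With edgeR, 2 members were called higher and 1 lower. DESeq2 called 3 lower (Itm2a, Slco1c1 and Foxq1) and the fit without the low-count filter 2 (Itm2a and Slco1c1). When 1 mouse was left out, 0 to 4 were called higher and 0 to 2 lower. Without control 237 or 239 none was called, and without 246 the 4 called higher were Vwf, Ctla2a, Ly6a and Icam1. Calls over all genes also fell, from 223 with all mice to 50 without 237 and 100 without 239. They numbered 93 without 246, and ran from 50 to 412 over the fits that left out 1 mouse. In these fits the log2 fold change ran from 0.63 to 0.83 for Ctla2a and from -0.43 to -0.33 for Itm2a. For Vwf it ran from 1.15 to 1.55. Over 16 alternatives, Ctla2a was called in 14, Itm2a in 10 and Vwf in 7. The number of called member bins was 1 in all 12 exon alternatives. Of 640 values of single members, 596 kept their direction and side of the threshold, and 20 turned sign, all when a mouse was left out and for genes that were not called: Cldn5 (-0.18 to 0.11), Cdh5 (-0.0497 to 0.04998), Lsr (-0.14 to 0.28), Cd34 (-0.117 to 0.0368), Plvap (-0.0317 to 0.0899), Abcb1a (-0.0689 to 0.0248), Abcc4 (-0.0571 to 0.00534), Klf4 (-0.18 to 0.16) and Lef1 (-0.147 to 0.0106). The cause was not tested, beyond the fewer mice. Among the other lists, leaving out 1 mouse left 1 to 3 calls for Weibel-Palade genes, 1 to 3 for pan-endothelial genes, 1 to 4 for further barrier transporters, 0 to 3 for the Wnt pathway, 0 to 4 for tip cells, 0 to 3 for venous genes, 0 to 3 for oligodendrocytes, and 0 to 1 for the NF-κB and leukocyte lists. No paired analysis was possible because mutators and controls carry individual mouse numbers that pair no animals. Low counts limit Sele and Selp, which were not tested. With 4 controls, 1 mouse can carry or cancel a call.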
